A study of Mus musculus with 2 samples.

Results

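The 9 genes described here encode inflammatory cytokines and the proteins that act directly on or beside them: the interleukin-1 ligands Il1a and Il1b, their antagonist Il1rn, their receptor Il1r1, the cytokines Tnf, Il6, Il12b and Il10, and Ptgs2, the inducible cyclooxygenase of prostaglandin synthesis. They were taken by gene symbol and are 9 of the 34097 genes in the count matrices, with 1 row for each symbol. The samples were 2 single-cell RNA libraries from tumours of LLC, the Lewis lung carcinoma line of mouse, labelled as a lung cancer xenograft. The control library came from a control tumour and the knockdown library from a tumour that carried an shRNA against Gfpt2, an enzyme of the hexosamine pathway. Mouse strain, age, the number of animals, the shRNA sequence and the cells that expressed it are not stated in the labels. Each condition was 1 library, so no difference between the tumours has a replicate check, and animal, library and knockdown cannot be told apart.

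Macrophages and monocytes are the main makers of IL-1, TNF, IL-6 and IL-10 in tissue, and dendritic cells and activated macrophages make the p40 chain that Il12b encodes, which is shared by IL-12 and IL-23. IL-1 alpha and IL-1 beta signal through the same receptor, which many stromal and epithelial cells carry, and the antagonist binds that receptor without signalling. Signals from IL-1 and TNF receptors reach NF-kB, which induces many of the same cytokine genes and Ptgs2. The prostaglandin E2 made downstream of Ptgs2 acts on receptors of immune and tumour cells.

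The upstream sequences of 2 genes are shown because Il6 and Ptgs2 were the members more than 1.5-fold higher in knockdown tumour-like cells at levels clear of carried-over macrophage RNA when all cells of the class were summed (values below, with those for Il6 after thinning). Each line holds the 250 bases before the start of transcription, from RefSeq on build GRCm38.p6, 5′ to 3′ on the gene's strand. Capitals mark the matches to 5 motifs searched on both strands. The Il6 window lies at chr5:30012864-30013113 on the plus strand and the Ptgs2 window at chr1:150099781-150100030 on the plus strand.
Il6: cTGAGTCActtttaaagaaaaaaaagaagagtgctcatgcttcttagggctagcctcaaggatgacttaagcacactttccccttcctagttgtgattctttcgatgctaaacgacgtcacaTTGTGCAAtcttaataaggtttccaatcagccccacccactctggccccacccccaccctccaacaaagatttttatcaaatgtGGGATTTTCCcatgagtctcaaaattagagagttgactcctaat
Ptgs2: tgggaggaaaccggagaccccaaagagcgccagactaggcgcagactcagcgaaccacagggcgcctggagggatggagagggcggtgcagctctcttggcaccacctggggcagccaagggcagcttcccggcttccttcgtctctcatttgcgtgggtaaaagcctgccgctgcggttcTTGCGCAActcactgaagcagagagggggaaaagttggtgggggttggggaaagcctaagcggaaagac

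In the Il6 window the capitals are, in order, an AP-1 match 249 bases before the start, a C/EBP match on the minus strand 128 bases before it and an NF-kB match 44 bases before it. The Ptgs2 window holds 1 C/EBP match, 69 bases before the start. The motifs were NF-kB (GGG, any 2 bases, then TTTCC, present in 1.41% of 32817 promoters of the same length), AP-1 (TGANTCA, 6.75%), C/EBP (TTGCNNAA, 9.57%), the cyclic AMP response element (TGACGTCA, 1.55%) and an interferon response element (GAAA on either side of any 2 bases, 2.97%), and no matches overlapped in these windows. The promoter table held 8 of the 9 members with 11 promoters in all, and no entry for Il10. Among the other members, Il1rn had an NF-kB match 51 bases before the start of 1 of its 3 promoters and an AP-1 match in another, Il1a had an AP-1 match 12 bases before its start, and Il1r1 had a C/EBP match in 1 of its 2 promoters. No motif matched in the windows of Tnf, Il1b and Il12b, which says only that these letters are not there.

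The control library held 11977 cell barcodes and 165824226 UMIs (unique molecular identifiers, which count captured RNA molecules), and the knockdown library 12853 barcodes and 138402860 UMIs. After filters on cells and doublets, 10663 and 11450 cells were kept, and 37 barcodes occurred in both libraries. The rules gave 3861 control and 4405 knockdown macrophages (C1q genes), 144 and 39 monocytes (Lyz2 without C1q), 650 and 522 T cells (Cd3 genes) and 4955 and 5166 tumour-like cells (no Ptprc, little Lyz2, at least 5000 UMIs). Median depths were 5422 and 3951 UMIs in macrophages, 3267 and 2395 in monocytes, 2775 and 2523 in T cells, and 18743 and 14767.5 in tumour-like cells. The targeted gene Gfpt2 stood at 1.99 CPM (UMIs of the gene per 1000000 UMIs) in control and 0.653 in knockdown tumour-like cells, a log2 ratio of -1.61 (-2.21 to -1.03).

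The classes were not pure. The knockdown macrophage class held more RNA of other cells: the tumour-like markers Hmga2 and Krt7 summed to 29.5 CPM in control and 84.6 CPM in knockdown macrophages, and 5 fibroblast markers to 131 and 310 CPM, with all of them detected in both. At least 1 UMI of these 7 genes was found in 26.6% of control and 38.6% of knockdown macrophages. Markers of monocytes went the other way in the same class, where 5 of them summed to 128 CPM in control and 63.2 CPM in knockdown macrophages. The 5 neutrophil markers summed to 68.2 and 33.9 CPM, with 1 of them at 0 in the knockdown class. Of these S100a8, S100a9 and Retnlg were lower, while Csf3r stood at 31.3 and 33.4 CPM and Cxcr2 had 4 and 3 UMIs. The tumour-like class also carried the fibroblast markers, at 1111 and 1184 CPM summed, of which Dcn made up 1028 and 1078 CPM. Col1a1 stood at 18.4 and 25.0 CPM, Pdgfra at 42.6 and 51.4, Pdgfrb at 21.1 and 29.5, and Lum at 0.699 and 0.573. Xist, the RNA of the inactive X chromosome in female cells, stood at 498 and 394 CPM in macrophages and 527 and 579 CPM in T cells but at 2.62 and 3.41 CPM in tumour-like cells, below every leukocyte class. Levels are given in CPM of the UMIs summed over a class, and ratios as log2 of knockdown over control, with the range that the 95% Poisson intervals of both levels allow. These intervals cover counting error only.

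The 9 genes fell to different classes. Macrophages held 88.6% of the Il1a UMIs of the control library and 92.5% of those of the knockdown library, and 84.1% and 90.9% of Il1rn, 87.1% and 87.7% of Tnf, and 77.4% and 85.8% of Il1b. Tumour-like cells held most of the Il1r1 UMIs, 79.9% and 75.9%, and most of the Ptgs2 UMIs, 57.4% and 68.0%. Il6 was shared between macrophages (41.9% and 37.6%) and tumour-like cells (46.5% and 49.1%), and Il10 between macrophages (55.8% and 54.2%), tumour-like cells (28.7% and 31.1%) and T cells (7.42% and 8.49%). Il12b came from macrophages, tumour-like cells and dendritic cells at 33.1%, 33.4% and 32.5% in the control library and at 61.5%, 8.39% and 21.7% in the knockdown library. These shares depend on how many cells each class contributed and on their depth.

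**Figure D1:**
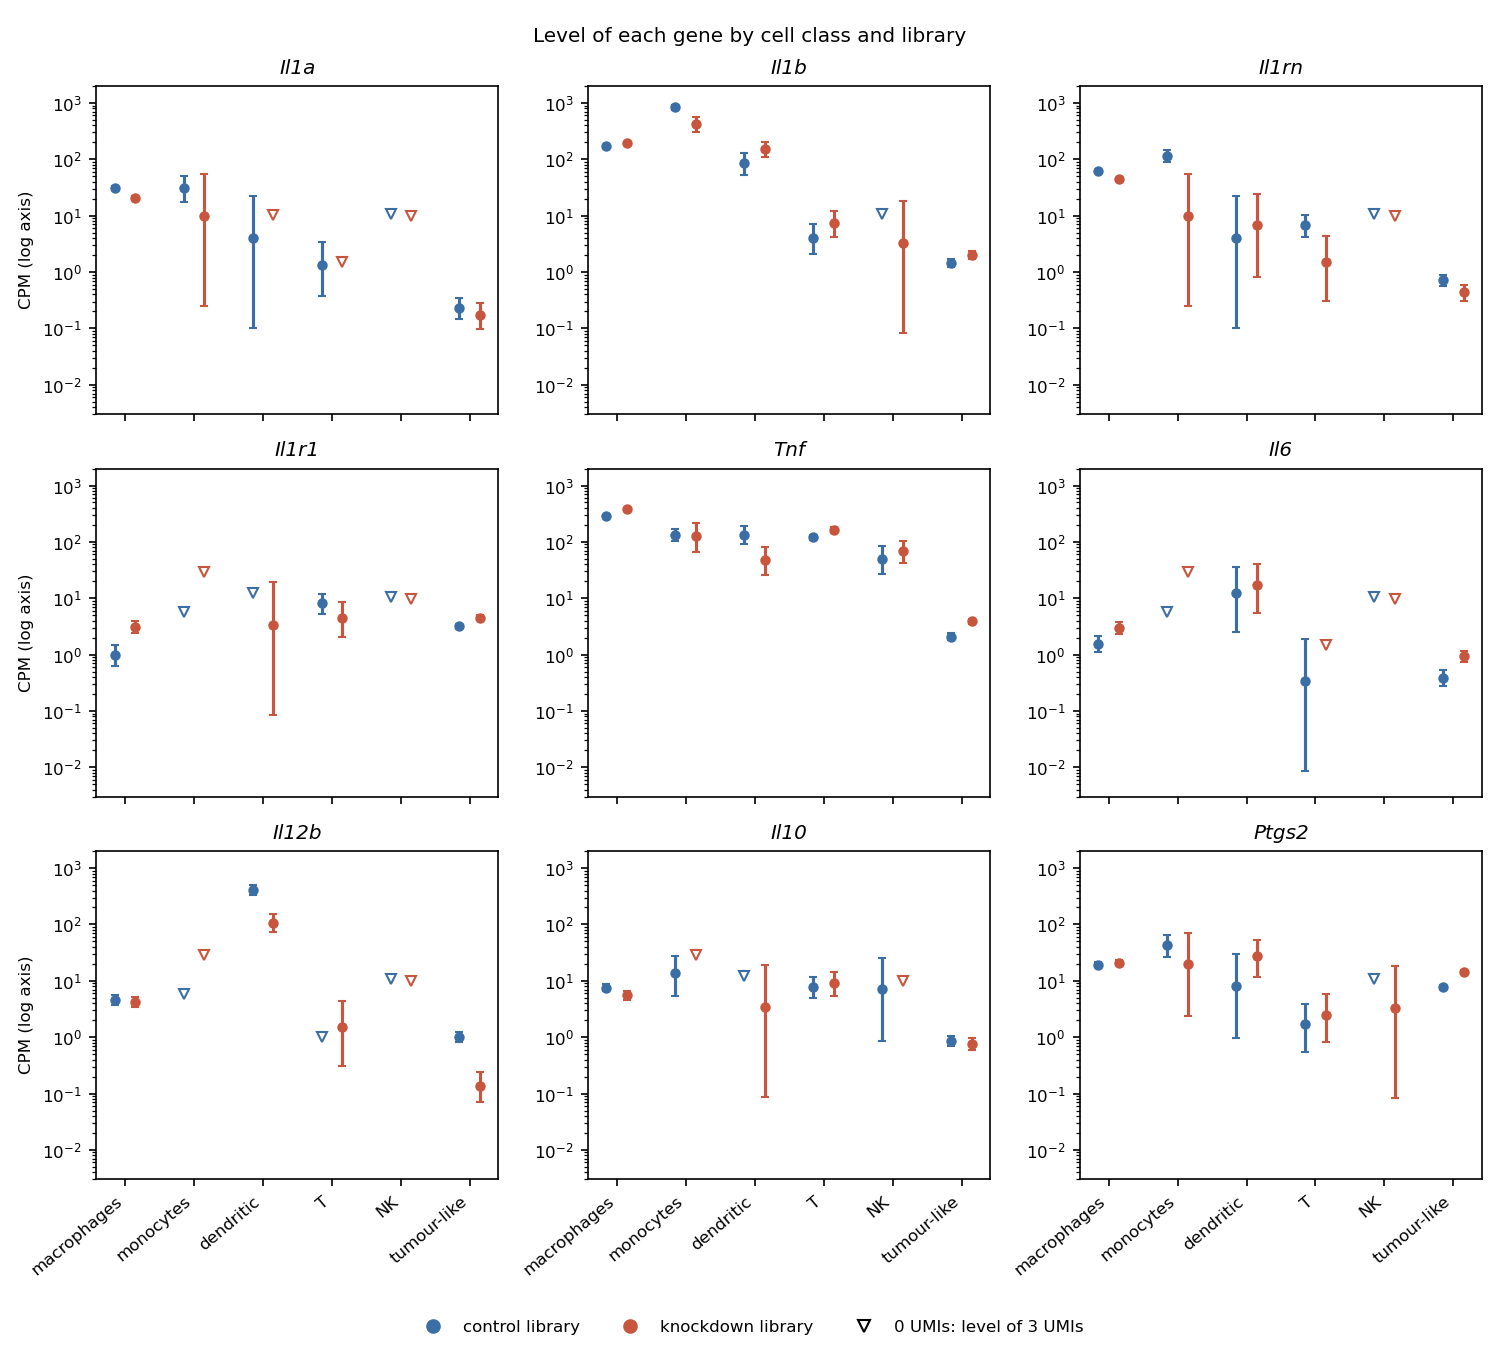
Level of each of the 9 genes in CPM (log axis) by cell class, control library in blue and knockdown library in red, with 95% Poisson intervals. Open triangles stand at the level of 3 UMIs where no UMI was counted; Il1b was highest in monocytes, Il12b in dendritic cells, and the Tnf level lay below 5 CPM in tumour-like cells only.

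The IL-1 ligands differed from each other within macrophages. Il1b, the ligand released after cleavage by caspase-1, stood at 174 CPM (169 to 180) in control and 196 CPM (190 to 202) in knockdown macrophages, from 3993 and 4068 UMIs, a log2 ratio of 0.17 (0.08 to 0.26). Il1a, the ligand that is active without cleavage, stood at 31.0 CPM (28.8 to 33.4) in control and 20.8 CPM (18.9 to 22.8) in knockdown macrophages, from 710 and 432 UMIs, a log2 ratio of -0.58 (-0.82 to -0.33). Il1b was thus slightly higher and Il1a lower in the knockdown class, with intervals that do not meet for either gene. Il1rn, which encodes the receptor antagonist, moved as Il1a did: 61.6 CPM in control and 44.4 CPM in knockdown macrophages, from 1410 and 923 UMIs, a log2 ratio of -0.47 (-0.64 to -0.30). The monocyte and neutrophil markers were lower in the same library as Il1a and Il1rn; without macrophages that held at least 3 UMIs of S100a8 and S100a9 together the ratios were -0.57 for Il1a and -0.47 for Il1rn, and the part of monocyte or neutrophil RNA was not tested.

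Tnf stood at 292 CPM (285 to 300) in control and 376 CPM (368 to 385) in knockdown macrophages, from 6698 and 7828 UMIs, a log2 ratio of 0.36 (0.30 to 0.43). The remaining members were rarer there. Il10, the anti-inflammatory cytokine of the set, stood at 7.55 CPM in the control macrophages and 5.53 CPM in those of the knockdown (173 and 115 UMIs, log2 ratio -0.45, range -0.94 to 0.04). Il12b stood at 4.54 and 4.23 CPM (104 and 88 UMIs, log2 ratio -0.10, range -0.70 to 0.49) and Ptgs2 at 19.3 and 21.1 CPM (441 and 438 UMIs, log2 ratio 0.13, range -0.14 to 0.40). For these 3 genes the range includes no difference, and at this depth none was detectable. Il6 had 36 and 62 UMIs and Il1r1 23 and 65 UMIs in macrophages, too few for the minimum of 100 UMIs in both libraries together. Their levels were 1.57 and 2.98 CPM for Il6 and 1.00 and 3.12 CPM for Il1r1. Without macrophages that held a tumour-like or fibroblast marker UMI, Il1r1 had 17 and 15 UMIs and a log2 ratio of 0.33 (-1.19 to 1.83), against 1.64 (0.68 to 2.65) over all macrophages, so the higher Il1r1 level was not detectable in the cells left.

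Of the 7 members with at least 100 UMIs in macrophages, 0 were more than 1.5-fold higher and 0 more than 1.5-fold lower in the knockdown library. Among the 11747 genes of the class with that many UMIs, 11.6% were more than 1.5-fold higher and 1.51% more than 1.5-fold lower. The median log2 ratio over all these genes was 0.11, beside 0.17 for Il1b and 0.36 for Tnf. That median was taken with the tumour-like and fibroblast RNA in the class, and was 0.01 without cells that held those markers (below). Most macrophage genes that no class rule used were lower in the knockdown class (above), so the median does not stand for them. Il1a lay just inside the fold.

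The values of several members changed when macrophages with a UMI of a tumour-like or fibroblast marker were left out, which kept 2834 control and 2706 knockdown cells. Tnf then had a log2 ratio of 0.70 (0.62 to 0.77), past 1.5-fold, and Il1b 0.53 (0.43 to 0.64). Il1rn had -0.07 (-0.27 to 0.13) and Il10 -0.03 (-0.60 to 0.53), so that neither was lower in the knockdown cells beyond counting error. Il1a remained lower at -0.34 (-0.64 to -0.05). Among these cells 2.22% of 10352 genes were more than 1.5-fold higher and 1.75% more than 1.5-fold lower, with a median of 0.01. The direction of Tnf, Il1b and Il1a was the same in both sets of cells; the ratios of Tnf and Il1b were larger without the marker-bearing cells, and the Il1a ranges overlap. The cells left had median depths of 5268 and 3813 UMIs, and the part of the admixed RNA in these ratios was not tested.

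**Figure D2:**
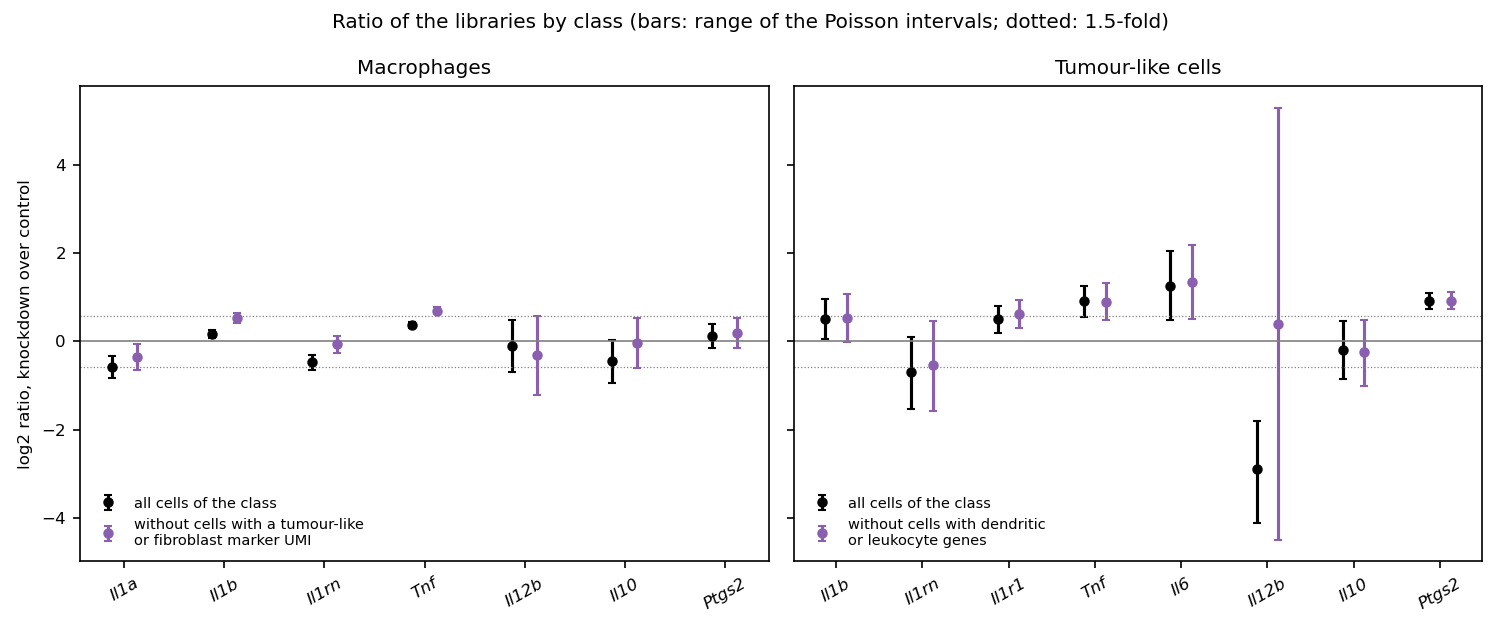
Log2 ratio of knockdown over control for members with at least 100 UMIs in macrophages (left) and tumour-like cells (right), in all cells of the class (black) and without cells that hold markers of other cells (purple). Bars are the range allowed by the Poisson intervals and dotted lines mark 1.5-fold; the Tnf ratio in macrophages moved from 0.36 to 0.70 and the Ptgs2 ratio in tumour-like cells from 0.91 to 0.92.

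Shares of macrophages with a UMI were compared after thinning to 3000 UMIs, since the knockdown cells were shallower; cells below that depth were left out, so that 3018 of the 3861 control and 2765 of the 4405 knockdown macrophages entered. Il1b was then found in 24.6% of control and 29.9% of knockdown macrophages, against 29.9% and 31.3% before thinning. Tnf was found in 47.7% and 50.7% of thinned cells and in 59.2% and 56.6% of cells before thinning, so the order of the libraries differed between the thinned deeper cells and all cells. Il1a was found in 7.59% and 5.32% of thinned cells and Il1rn in 14.0% and 10.0%. As a measure of free RNA, thinned T cells, which are not known as a source of IL-1 beta, held an Il1b UMI in 1.71% of control and 1.46% of knockdown cells. Tnf was spread widely over macrophages: 469 control and 506 knockdown cells held 50% of its UMIs. Il1b was held by fewer cells, 207 and 266, and Il12b by 4 and 9.

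**Figure D3:**
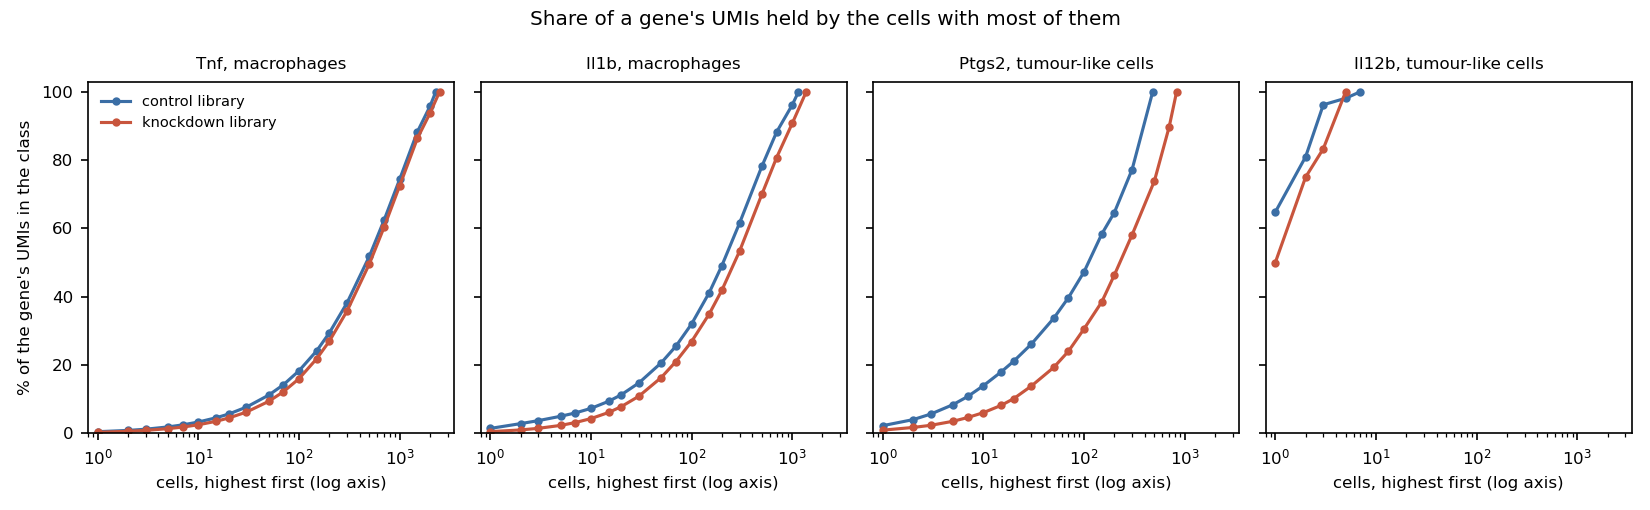
Share of a gene's UMIs in a class (vertical axis, %) held by the cells with most of them (horizontal axis, log scale), by library. For Tnf, 469 control and 506 knockdown macrophages held 50% of the UMIs, while 1 control tumour-like cell held 68 of the 105 Il12b UMIs of its class.

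Il1b was about as frequent in macrophages with Tnf as in those without. After thinning, it was present in 24.5% of control macrophages with a Tnf UMI and in 24.7% of those without, and in 31.1% and 28.6% of knockdown macrophages. Il1b did accompany Il1a: 36.2% of control macrophages with an Il1a UMI (30.01% to 42.8%) had Il1b, against 23.7% of those without (22.1% to 25.3%), and in the knockdown library the shares were 40.1% and 29.3%. Il1rn accompanied Ptgs2, at 23.8% of control cells with Ptgs2 against 13.6% of those without, and at 19.9% against 9.51% in the knockdown library. These shares describe cells of 1 library each.

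The genes most alike each member over macrophages were taken by the mean Pearson correlation of log levels in both libraries, among 8277 genes found in at least 5% of macrophages and with a coefficient of at least 0.2 in each library. The points are cells that share a library and differ in depth, so the coefficients are descriptions. For Tnf 27 genes met the rule, led by the chemokine Ccl4 (0.40 in control and 0.43 in knockdown), the RNA sensor Ifih1 (0.38 and 0.41) and the stress gene Ppp1r15a (0.37 and 0.38). For Il1b 9 genes met it, led by the immediate-early genes Fos (0.25 and 0.29) and Dusp1 (0.24 and 0.26) and by Cd74 of antigen presentation (0.21 and 0.26). Il1rn had 2, the elastase Mmp12 (0.30 and 0.21) and the ferritin gene Fth1 (0.26 and 0.21), and the other 6 members had none.

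Macrophages were also divided by an interferon score, the summed level of 7 interferon-response genes (Ifit1, Ifit3, Isg15, Rsad2, Cxcl10, Irf7 and Oasl1), into tertiles set on both libraries together. The lowest tertile held 42.4% of control and 25.4% of knockdown macrophages, the middle one 31.0% and 35.4%, and the highest one 26.7% and 39.2%. A tertile is a range of a score and not a cell type. Tnf climbed with the score in both libraries: 155, 268 and 563 CPM from the lowest to the highest tertile in control macrophages and 152, 260 and 652 CPM in knockdown macrophages. At like score the libraries differed less than over the whole class, with log2 ratios of -0.03 (-0.20 to 0.14), -0.04 (-0.17 to 0.08) and 0.21 (0.12 to 0.30). Without the cells that held tumour-like or fibroblast marker UMIs the 3 ratios were 0.30, 0.34 and 0.38.

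Il1b showed no such climb, at 158, 184 and 191 CPM in control and 212, 162 and 218 CPM in knockdown macrophages. The Il1b log2 ratios were 0.43 (0.27 to 0.58), -0.18 (-0.34 to -0.03) and 0.19 (0.03 to 0.35) from the lowest to the highest tertile. Without marker-bearing cells they were 0.75 (0.57 to 0.93), 0.37 (0.18 to 0.56) and 0.52 (0.33 to 0.71), so the direction in the middle tertile turned when those cells were left out. Il1rn was highest in the highest tertile, at 102 CPM in the control cells and 58.0 CPM in those of the knockdown, a log2 ratio of -0.82 (-1.07 to -0.56). Its levels in the lowest tertile were 46.5 and 39.2 CPM, a ratio of -0.25 (-0.58 to 0.08). In the middle tertile the Il1rn ratio was -0.55 (-0.88 to -0.23). Without marker-bearing cells the 3 Il1rn ratios were 0.06 (-0.33 to 0.45), -0.04 (-0.45 to 0.37) and -0.49 (-0.78 to -0.19), so that only in the highest tertile did the range leave out 0. Il12b was also concentrated in the highest tertile, at 13.4 CPM in control (76 UMIs) and 6.51 CPM in knockdown cells (50 UMIs), a ratio of -1.04 (-1.79 to -0.30). Without marker-bearing cells it was -1.83 (-3.15 to -0.60), from 40 and 14 UMIs. These UMIs came from few cells: over all macrophages 4 control and 9 knockdown cells held 50% of them, and without the 5 cells of each library with most Il12b the ratio of the whole class went from -0.10 to 0.47 (-0.37 to 1.32), from 43 and 54 UMIs. In the lowest tertile the Il12b order was the opposite, 0.813 CPM from 8 UMIs and 3.88 CPM from 21 UMIs. Il1a was lower in the knockdown library in each tertile, with ratios of -0.25, -0.78 and -0.69, of which the range of the first includes 0. Without marker-bearing cells they were -0.04 (-0.52 to 0.43), -0.44 (-1.04 to 0.14) and -0.46 (-0.98 to 0.06), and all 3 ranges include 0.

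**Figure D4:**
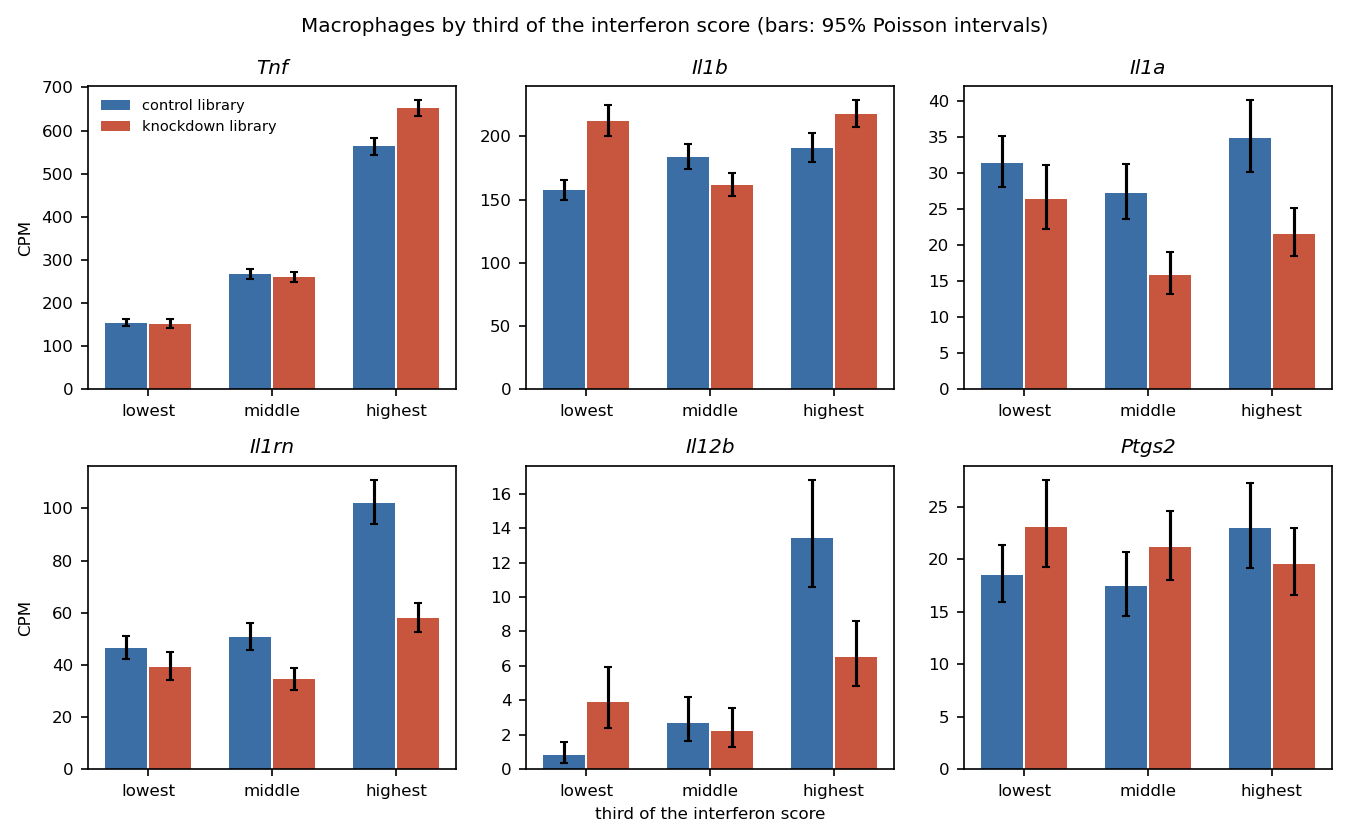
Level of 6 genes in CPM in macrophages of the lowest, middle and highest tertile of the interferon score, control library in blue and knockdown library in red, with 95% Poisson intervals. Tnf climbed from 155 to 563 CPM in control and from 152 to 652 CPM in knockdown macrophages, while Il1b stayed between 158 and 218 CPM.

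Monocytes had the highest Il1b level of the 4 classes in both libraries. Il1b stood at 832 CPM (756 to 915) in the 144 control monocytes and at 419 CPM (303 to 564) in the 39 knockdown monocytes, from 431 and 43 UMIs, a log2 ratio of -0.99 (-1.59 to -0.42). Il1b was the 1 member with 100 UMIs there, and it was lower past 1.5-fold, in a class where 11.9% of 966 genes were lower and 5.8% higher past that fold. Without the 5 cells of each library with most Il1b UMIs, 353 control and 11 knockdown UMIs remained, so the knockdown level rested on few cells. The ratio was then -2.51. It cannot be set against -0.99, because the 5 cells came from 92 control but 11 knockdown monocytes with the gene. An Il1b UMI was found in 63.9% of control and 28.2% of knockdown monocytes at their full depths, and in 64.6% (53.3% to 74.9%) of 82 and 38.5% (13.9% to 68.4%) of 13 cells thinned to 3000 UMIs. The ratio over the thinned cells was -0.54 (-1.41 to 0.27), within 1.5-fold and with a range that includes no difference.

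Markers of neutrophils differed between the libraries in this class. The summed level of 5 neutrophil genes was 1236 CPM in control and 48.7 CPM in knockdown monocytes. Of these Csf3r stood at 36.7 and 38.9 CPM, from 19 and 4 UMIs. In the control library 8 monocytes held at least 3 UMIs of S100a8 and S100a9, and none did in the knockdown library. Without those 8 cells the Il1b ratio was -0.99, the same as with them. RNA of other cells was higher in the knockdown monocytes, where 5 fibroblast markers summed to 224 CPM against 67.6 CPM in control and the tumour-like markers to 68.2 CPM against 30.9 CPM. These sums rest on few UMIs. Dcn made up 185 CPM of the knockdown fibroblast sum, from 19 UMIs, and Hmga2 all of the tumour-like sum, from 7 UMIs. The part of this RNA in the Il1b ratio was not tested. The antagonist Il1rn had 60 and 1 UMIs in monocytes, Il1a 16 and 1, Ptgs2 22 and 2, Tnf 70 and 13 and Il10 7 and 0. The Tnf levels were 135 and 127 CPM, with overlapping intervals. Il1r1, Il6 and Il12b had 0 UMIs in either library, which allows up to 5.79 CPM in control and 29.2 CPM in knockdown monocytes.

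T cells carried Tnf at 120 CPM (108 to 133) in the control tumour and 162 CPM (145 to 180) in the knockdown tumour, from 354 and 325 UMIs, a log2 ratio of 0.44 (0.12 to 0.75). It was the 1 member with 100 UMIs in T cells and stayed within 1.5-fold, while 2.17% of 6683 genes were higher and 2.05% lower past that fold. Thinned to 3000 UMIs, 24.9% of control (20.1% to 30.3%) and 29.6% of knockdown T cells (23.5% to 36.4%) held a Tnf UMI, and thinned to 1500 UMIs, which keeps more cells, 20.1% and 19.8% did, so that no difference in the share of cells was detectable. The Tnf ratio over the cells thinned to 3000 UMIs was 0.26 (-0.28 to 0.80), a range that includes no difference. The T cell class held less RNA of other cells in the knockdown library: the fibroblast markers summed to 396 CPM in those of the control and 153 CPM in those of the knockdown, and Hmga2 and Krt7 to 110 and 67.2 CPM. The leukocyte gene Ptprc, at 520 and 681 CPM, and the T cell receptor gene Trac, at 396 and 508 CPM, were higher in the same library as Tnf. The other T cell markers differed less, with Trbc2 at 744.5 and 823 CPM, Cd28 at 194 and 226, Lck at 281 and 299, and Cd2 at 225 and 226. The part of the other RNA in the Tnf ratio was not tested. Lta, the TNF relative made by lymphocytes, stood at 17.6 and 26.4 CPM (52 and 53 UMIs, log2 ratio 0.59, range -0.22 to 1.40). Il10 had 23 and 18 UMIs in T cells, at 7.78 and 8.97 CPM, and Il1r1 24 and 9 UMIs, at 8.12 and 4.48 CPM. Il1rn had 20 and 3 UMIs, and 14 of the 20 control UMIs came from 3 cells. Il1b had 12 and 15 UMIs, Ptgs2 5 and 5, Il1a 4 and 0, Il6 1 and 0, and Il12b 0 and 3. NK cells, 35 and 43 in number, also held Tnf, at 49.5 and 68.5 CPM from 14 and 21 UMIs.

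Levels outside macrophages were read against macrophage RNA carried into other droplets. For 7 macrophage genes that no class rule used, the level in tumour-like cells was 0.393% to 1.05% of the macrophage level in control cells, and between 0.584% and 1.63% of it in knockdown cells. Tnf lay at 0.711% and 1.04%, Il1b at 0.819% and 1.03%, and Il1a at 0.752% and 0.827%, all within those ranges, and Il1rn at 1.15% and 0.981%, just above the range in the control library. The upper end of the control range was Cd68 alone. The next gene there, Apoe, lay at 0.685%, below Tnf, Il1b and Il1a. In knockdown cells Cd68 lay at 1.63%, Csf1r at 1.15% and Apoe at 1.03%. Ptgs2, at 40.1% and 69.0%, Il1r1, at 318% and 144%, Il6, at 24.7% and 31.1%, and Il10, at 11.5% and 13.7%, lay far above it. In T cells the 7 genes lay at 0.922% to 3.65% in control and 0.819% to 4.15% in knockdown cells, against 40.9% and 43.0% for Tnf and 2.33% and 3.82% for Il1b. The Il1b level in T cells was therefore at the level of carried-over RNA, and the Tnf level was not.

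**Figure D5:**
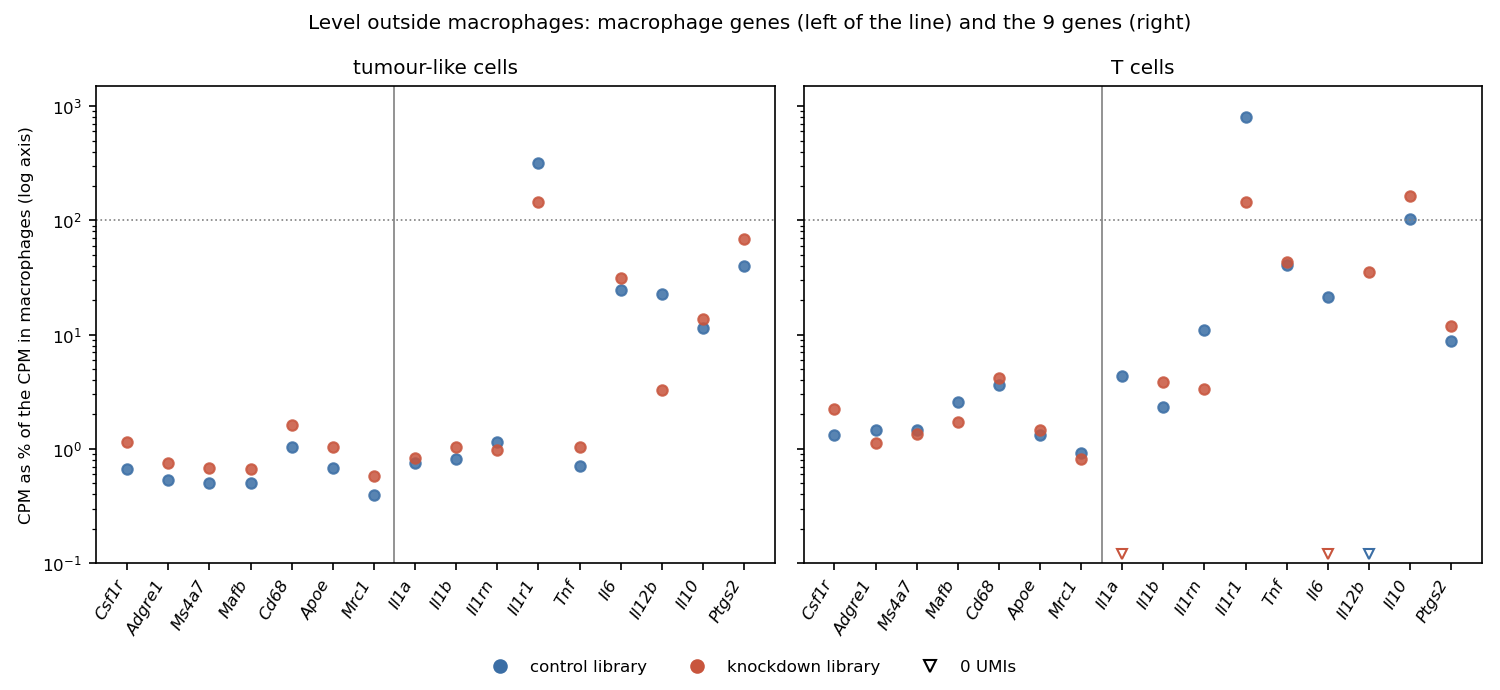
Level in tumour-like cells (left) and T cells (right) as a percentage of the level in macrophages (log axis), for 7 macrophage genes left of the grey line and the 9 genes right of it, by library. In tumour-like cells Tnf, Il1a and Il1b lie between 0.711% and 1.04%, inside the range of the macrophage genes, whose upper end is Cd68. Ptgs2 and Il1r1 lie at 40.1% or above.

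Ptgs2 in tumour-like cells stood at 7.72 CPM (7.19 to 8.28) in the control tumour and 14.5 CPM (13.7 to 15.3) in the knockdown tumour, from 795 and 1268 UMIs, a log2 ratio of 0.91 (0.73 to 1.09). Of the 8 members with 100 UMIs in the class, 3 were more than 1.5-fold higher (Ptgs2, Tnf and Il6) and 2 more than 1.5-fold lower (Il1rn and Il12b) in the knockdown library. Among 13365 genes, 2.9% were higher and 0.853% lower past that fold. Of these 5 genes, Tnf lay within the carry-over range and Il1rn at its edge, Il12b rested on 3 cells (described below), and Ptgs2 and Il6 lay above the range.

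Ptgs2 was found in more of the knockdown cells. In cells thinned to 3000 UMIs it was found in 2.18% of control (1.79% to 2.63%) and 4.67% of knockdown (4.11% to 5.28%) tumour-like cells, and 111 control and 223 knockdown cells held 50% of the UMIs. Before thinning the shares were 9.71% and 16.1%, with a mean of 1.65 and 1.53 UMIs per cell that had the gene. Without tumour-like cells that held dendritic or other leukocyte genes the log2 ratio was 0.92, and without cells with a Krt16 UMI it was 0.85. The antisense neighbour Ptgs2os showed a similar difference, at 2.02 and 4.03 CPM, a ratio of 1.00 (0.65 to 1.35). The 2 genes were counted in separate rows, and in macrophages Ptgs2os stood at 0.873 and 2.55 CPM, from 20 and 53 UMIs. Whether counting used the strand is not given in the sources used here, and the part of reads shared by the 2 genes was not tested. In macrophages Ptgs2 did not differ beyond counting error (values above), and the difference between the classes was not tested.

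Ptgs2 was more frequent in tumour-like cells that held Il1rl1, the receptor of IL-33. With cells thinned to 5000 UMIs, 8.83% of control cells with an Il1rl1 UMI had Ptgs2 (6.19% to 12.1%), against 3.11% of those without (2.62% to 3.65%). In the knockdown library the shares were 9.69% (7.72% to 12.0%) and 5.95% (5.26% to 6.69%). Of cells with the proliferation gene Mki67, 2.16% (1.26% to 3.44%) held Ptgs2 in the control library, against 3.82% (3.25% to 4.44%) of those without, intervals that overlap. In the knockdown library the shares were 3.68% (2.57% to 5.08%) and 7.17% (6.41% to 7.99%), which do not overlap. Il1r1 followed Il1rl1 as well: 3.90% against 1.49% in control and 4.28% against 1.94% in knockdown cells. The pair of members Il1r1 and Ptgs2 had overlapping intervals: Ptgs2 was found in 6.02% of control cells with Il1r1 against 3.51% of those without, and in 7.56% against 6.50% of knockdown cells. Of cells with the chemokine gene Cxcl1, 4.53% in control and 9.67% in knockdown held Ptgs2, against 3.38% and 5.98% of those without, with intervals that overlap in control and not in knockdown cells. Il1r1 was also more frequent with Cxcl1, at 3.98% against 1.28% in control and 3.92% against 2.02% in knockdown cells, with intervals that do not overlap in either library. The partner genes of this comparison were chosen after their values were seen.

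Il1r1, the signalling receptor of IL-1 alpha and IL-1 beta, stood at 3.20 CPM (2.86 to 3.56) in control and 4.51 CPM (4.08 to 4.98) in knockdown tumour-like cells, from 329 and 394 UMIs, a log2 ratio of 0.50 (0.20 to 0.80). Its intervals do not meet, and the ratio stayed within 1.5-fold. The Il1r1 level in control macrophages was lower, at 1.00 CPM, and in knockdown macrophages it was 3.12 CPM, in the library whose macrophages held more tumour-like RNA. In T cells Il1r1 stood at 8.12 CPM (5.20 to 12.1) in control and 4.48 CPM (2.05 to 8.51) in knockdown cells. Without the 5 control T cells with most of it, 8 of the 24 control UMIs remained, so its order against tumour-like cells rests on few cells.

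Il6, a cytokine that signals through gp130, stood at 0.389 CPM in the control tumour-like cells and 0.928 CPM in those of the knockdown, from 40 and 81 UMIs, a log2 ratio of 1.26 (0.48 to 2.06). It was found in 36 and 60 cells. Without the 5 cells of each library with most of its UMIs the ratio was 1.19 (0.30 to 2.11). Thinned to 3000 UMIs, the class held 14 and 21 Il6 UMIs, a ratio of 0.53 (-0.91 to 2.01) that is within 1.5-fold, and the gene was found in 0.262% (0.140% to 0.448%) and 0.329% (0.192% to 0.526%) of cells, so the Il6 difference was not detectable at that depth. In macrophages Il6 lay in the same direction, at 0.92 (0.07 to 1.79), with 7 cells of each library holding 50% of its UMIs. Il10 stood at 0.864 and 0.756 CPM in tumour-like cells (89 and 66 UMIs, log2 ratio -0.19, range -0.86 to 0.47).

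The Il12b difference in tumour-like cells rested on 3 cells. The class held 105 Il12b UMIs in control cells and 12 in knockdown cells, a log2 ratio of -2.89 (-4.12 to -1.80), and 3 control cells held 68, 17 and 16 of them. Those 3 cells also held 15, 16 and 2 UMIs of Ccr7, a gene of mature dendritic cells, and 0 UMIs of Hmga2. They held 38, 59 and 22 UMIs of Cd74 of antigen presentation, which was high in control macrophages too (10800 CPM, against 15830 CPM in dendritic cells). Without cells that carried dendritic or leukocyte genes, 2 Il12b UMIs remained in each library and the log2 ratio was 0.40 (-4.50 to 5.30). In the cells classed as dendritic, 37 control and 30 knockdown cells, Il12b stood at 415 CPM (338 to 503) and 106 CPM (72.0 to 150), from 102 and 31 UMIs, a log2 ratio of -1.97 (-2.80 to -1.17). Il12b was found in 18 of these control and 9 of these knockdown cells, in 45.2% (27.3% to 64.0%) and 9.52% (1.18% to 30.4%) when thinned to 3000 UMIs, and in 33.3% and 23.3% when thinned to 1500 UMIs. The intervals of these shares overlap, and 3 cells in each library held 50% of the UMIs. Markers of the class itself were lower in the same library: the 7 dendritic genes summed to 1382 and 937 CPM, with 5 and 6 of them detected, and Ccr7 stood at 654 and 376 CPM, Clec9a at 215 and 102.6 CPM and Zbtb46 at 118 and 54.7 CPM, while Xcr1 stood at 244 and 246 CPM. Markers of other cells were higher there: Krt7 and Hmga2 summed to 4.07 CPM in control and 161 CPM in knockdown dendritic cells, and 5 fibroblast markers to 32.5 and 369 CPM. The part of these shifts in the Il12b ratio was not tested. Tnf in these cells stood at 134 and 47.9 CPM from 33 and 14 UMIs.

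Tnf, Il1b and Il1rn in tumour-like cells had log2 ratios of 0.91 (0.56 to 1.26), 0.50 (0.04 to 0.95) and -0.70 (-1.53 to 0.10), at levels within or near the range of carried-over RNA. Thinned to 3000 UMIs, Il1b had 33 and 31 UMIs and its direction turned, with a ratio of -0.15 (-1.20 to 0.89) that includes no difference. For Tnf the levels were 2.08 and 3.89 CPM. The carry-over of the 7 macrophage genes also differed between the libraries, with medians of 0.530% in control and 0.749% in knockdown tumour-like cells. The level of Il1a there was 0.233 and 0.172 CPM, from 24 and 15 UMIs.

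Around the members, 58 further genes of the same systems were followed: the IL-1 system, the TNF system, the IL-6, IL-12 and IL-10 system, the prostaglandin system, and NF-kB with its feedback genes. In macrophages 50 had at least 100 UMIs, of which 3 were higher and 1 lower past 1.5-fold and 46 lay within it, beside 11.6% higher and 1.51% lower over all genes of the class, with a median log2 ratio of -0.05 against 0.11 over all genes. The 3 higher genes were Il1rl1 (2.66 and 14.6 CPM, ratio 2.46), Il1rap, the accessory chain of the IL-1 receptor (14.5 and 26.0 CPM, ratio 0.84), and Il6st, which encodes gp130 (16.6 and 26.5 CPM, ratio 0.67). Il1rl1, Il1rap and Il6st stood at 23.5, 41.2 and 44.0 CPM in control tumour-like cells, above their control macrophage levels, and the knockdown macrophages held more tumour-like RNA; its part in these ratios was not tested. The lower gene was Osm, a cytokine of the IL-6 family (30.7 and 18.2 CPM, ratio -0.75).

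In tumour-like cells 47 of the 58 had 100 UMIs, of which 4 were higher and 0 lower past 1.5-fold, beside 2.9% and 0.853% of all genes of the class, with a median of 0.14 against 0.04 over all genes. They were Il1rl1, at 23.5 and 47.5 CPM (ratio 1.01, 0.91 to 1.12), and the low genes Il23a (0.59, -0.21 to 1.40), Il12rb2 (0.72, -0.10 to 1.55) and Il10ra (0.62, -0.02 to 1.26), whose ranges include no difference. In T cells 31 had 100 UMIs, of which 1 was higher (Lta, above) and 1 lower (Il1rap, 31.1 and 20.4 CPM, ratio -0.61, range -1.38 to 0.14), beside 2.17% and 2.05% of all genes of the class. In monocytes 9 did, of which 0 were higher and 1 was lower (Socs3, 214 and 136 CPM, ratio -0.65, range -1.79 to 0.38), beside 5.8% and 11.9% of all genes. The ranges of these 3 genes include no difference. The receptors of TNF lay within the fold, with Tnfrsf1a at 78.4 and 74.8 CPM in macrophages and 63.9 and 71.7 CPM in tumour-like cells and Tnfrsf1b at 64.0 and 57.3 CPM and at 17.2 and 19.9 CPM. The decoy receptor Il1r2 stood at 10.7 and 9.85 CPM in macrophages, the IL-6 receptor Il6ra at 49.5 and 40.7 CPM, the IL-10 receptor chains Il10ra and Il10rb at 111 and 108 CPM and at 5.72 and 7.21 CPM, and the IL-12 receptor chain Il12rb1 at 9.21 and 8.94 CPM, all within the fold. The prostaglandin E synthase Ptges stood at 37.4 and 32.7 CPM in tumour-like cells while Ptgs2 was higher, and the constitutive cyclooxygenase Ptgs1 at 88.7 and 68.0 CPM in macrophages. The prostaglandin E2 receptor Ptger4 stood at 51.1 and 45.9 CPM in macrophages. Of the 16 NF-kB and feedback genes none passed the fold in macrophages, where 11.6% of all genes were higher and 1.51% lower past it. Nfkbia, the inhibitor that NF-kB induces, stood at 493 and 448 CPM (ratio -0.14, -0.20 to -0.08). Tlr2 (-0.44) and Myd88 (-0.37) were also lower with ranges that leave out 0. Nfkb2 (0.51, 0.31 to 0.71), Nfkbie (0.33, 0.13 to 0.525) and Relb (0.24, 0.07 to 0.41) were higher.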

How the data were processed

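Single-cell RNA was measured in 1 control and 1 knockdown library on the 10X Genomics platform. The deposited files hold raw UMI counts per gene and cell, per the file headers, which name Cell Ranger 6.1.0; the submitters' processing notes name Cell Ranger 3.1.0. The genome build of the counting is not given in the sources used here. The 9 members, the gene lists, the class rules and the tests were chosen with earlier results of these data known.

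Cells with under 200 genes or over 20% mitochondrial UMIs were left out. Doublets were ranked by Scrublet in scanpy 1.11.5 (seed 1), and the highest 0.8% per 1000 cells removed, 1148 and 1322 cells; Scrublet's own threshold would have marked 1026 and 2449. Macrophages held at least 10 UMIs of C1qa, C1qb and C1qc per 10000; monocytes at least 20 of Lyz2 and under 5 of C1q; T cells at least 2 UMIs of Cd3d, Cd3e and Cd3g; tumour-like cells 0 of Ptprc, under 5 of Lyz2 per 10000 and at least 5000 UMIs. NK and dendritic cells held at least 3 UMIs of their markers. A cell that met 2 rules was in no class (152 and 180 cells).

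UMIs were summed per class and library and divided by the summed total to give CPM. Intervals are exact Poisson for sums and exact Clopper-Pearson for shares, at 95%, and a count of 0 is read as allowing up to 3 UMIs. With 1 library per group no test was made. All 9 members are named in every class; list genes are named where past 1.5-fold with 100 UMIs (up to 4 per direction) or where they are receptors of a member. Ptges, Ptgs1, Ptger4, the single NF-kB and feedback genes, and the partner genes of the tumour-like co-detection were named after their values were seen. TMM factors came from edgeR 4.0.16 in R 4.3.3 as an alternative scaling. The calculations were tested on simulated data.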

Additional observations from a re-analysis of the deposited data

Results flagged for a closer look

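Il1b is listed here because it was higher in the knockdown library in macrophages and lower in monocytes. The log2 ratios were 0.17 and -0.99, a difference of 1.16, and with 1 library per condition that difference was not tested. The knockdown monocytes were 39 cells with 43 Il1b UMIs. The same holds for tumour-like cells against monocytes, with ratios of 0.50 and -0.99, a difference of 1.49 that was not tested. The tumour-like Il1b level lay within the range of carried-over macrophage RNA. Thinned to 3000 UMIs, the Il1b ratios were 0.32 (0.19 to 0.46) in macrophages, -0.15 (-1.20 to 0.89) in tumour-like cells and -0.54 (-1.41 to 0.27) in monocytes. The ranges in tumour-like cells and monocytes include no difference.

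Cells that met no class rule were outside the comparisons and carried Tnf. The 1065 such cells of the knockdown library held it at 30.6 CPM (26.6 to 35.0), above the 19.95 CPM (16.9 to 23.4) of the 829 control cells, from 210 and 154 UMIs. These cells hold a mixture of types, and the makeup of the mixture was not tested.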

How the results depend on the processing

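Over all members and classes, 29 log2 ratios gave 338 comparisons with an alternative: 311 moved by less than counting error, 25 moved by more, and 2 ratios past 1.5-fold reversed. The sign changed in 16 of the 338, of which 14 concern ratios whose own range includes 0 (Il12b in macrophages, from -0.10 to as high as 0.47, among them) and 2 do not. Shares with a UMI moved in 61 of 144 comparisons when cells were left at full depth or thinned to 1500 UMIs.

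In macrophages, Scrublet's own threshold gave ratios of -0.31 for Il1a, 0.43 for Il1b, -0.21 for Il1rn and 0.62 for Tnf. Leaving out cells with tumour-like or fibroblast marker UMIs, chosen after seeing the data as were the alternatives on dendritic genes and thinned ratios, gave 0.53 for Il1b, -0.07 for Il1rn and 0.70 for Tnf. TMM scaling, which shifts all macrophage ratios by -0.14, gave 0.026 for Il1b and 0.22 for Tnf, and the median of ratios, with a shift of -0.10, gave 0.061 and 0.26. Thinning gave 0.32 for Il1b. Tnf was 0.45 with no doublet removal, 0.43 with a C1q threshold of 20 and 0.44 with every cell weighted equally. TMM shifts monocyte ratios by -0.29.

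In monocytes Il1b was -2.51 without the 5 highest cells of each library, taken from 92 control and 11 knockdown cells with the gene. In T cells Tnf was 0.76 with Scrublet's own threshold. In tumour-like cells, thinning turned Il1b to -0.15 and Il10 to 0.53 and gave -4.65 for Il12b, and Il12b was -0.081 from 10000 UMIs up and reversed to 0.40 without cells with dendritic or leukocyte genes. The cause of these shifts was not tested. From few UMIs, Il1a in monocytes turned to 0.54 with cells weighted equally. With tertiles set on the control library the sign changed in 3 of 27 ratios, Il6 in the middle tertile (-0.17), Il6 in the lowest (0.10) and Il12b in the middle (0.18), each with a range that includes 0.

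The count of members past 1.5-fold in macrophages, 0 above, became 1 with a C1q threshold of 5, Scrublet's own threshold, the median of ratios, no marker-bearing cells, or no top 5 cells, 3 with TMM, and 4 at a lower fold threshold. In monocytes the 1 became 0 when thinned and at a fold of 2. In T cells the 0 became 1 with Scrublet's own threshold and at the lower fold threshold. In tumour-like cells the 5 became 3 when thinned and 2 at a fold of 2. Members also changed within near-equal counts: Il1rn (-0.54) and Il12b dropped out and Il1r1 (0.62) entered without cells with dendritic or leukocyte genes, Il1rn (-0.32) dropped out and Il1b (0.77) entered without the top 5 cells, where Il12b gave no value, and Il12b dropped out and Il1b (0.63) entered from 10000 UMIs up. The Ptgs2 ratio in tumour-like cells kept its direction and stayed past 1.5-fold under all alternatives run. No paired analysis was possible because each condition has 1 library.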
